A study of Setaria viridis with 40 samples.

Results

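Heat shock transcription factors (HSFs) were measured in leaves of the C4 grass *Setaria viridis*, accession ME034, under high light or high temperature. The genes described are the 10 HSFs that passed the filter of the study (at least 10 counts in at least 10% of the libraries), out of 18 HSFs that the study lists and of 38239 genes in the files. By the class letter in their names 6 belong to class A, namely HSFA1A (Sevir.9G006100), HSFA2A (Sevir.9G055900), HSFA3A (Sevir.1G181200), HSFA4A (Sevir.5G321500), HSFA6B (Sevir.9G247200) and HSFA8A (Sevir.9G488900). Another 3 belong to class B, namely HSFB2B (Sevir.6G242500), HSFB2C (Sevir.2G292500) and HSFBA2 (Sevir.7G215000), and 1 to class C, HSFCA2 (Sevir.1G026200). All plants were grown for 13 days at 31 °C under 250 µmol photons per square metre per second with a photoperiod of 12 h. Control leaves (ctrl) stayed in these conditions, high light (HL) was 900 µmol photons per square metre per second, and high temperature (HT) was 40 °C. Leaves were taken before treatment (ctrl_0h) and after 1, 2 and 4 h of each treatment (ctrl_1h, HL_1h, HT_1h and so on). Each of the 10 conditions had 4 biological replicates, named A to D, and each replicate pooled 2 cm segments from the middle of the fourth leaf of 2 plants.

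HSFs are DNA-binding proteins that form trimers and bind heat shock elements in the promoters of heat shock protein (HSP) genes and of other stress genes. Class A HSFs carry short activator motifs in their C-terminal part and switch genes on. Class B HSFs lack these motifs, and several of them act as repressors in Arabidopsis, while class C HSFs are less well known and form a larger group in grasses than in Arabidopsis.

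The 40 libraries were QuantSeq 3′ libraries, which read 1 end of each transcript, so that the deposited TPM values carry no gene length and are each gene's share of the library total. Levels are given as TPM from all 40 libraries, and tests rest on 39 count columns, with 3 columns at HL_1h. The header of 1 column named HT where its values were those of HL_1h replicate D, so it was not used. Tests at HL_1h therefore do not hold replicate D, except in the settings that use the TPM files. Library totals lay between 1422507 and 4901131 counts (median 3694586). Bundle sheath markers (NADP-ME, median 4784 TPM, and RBCS_A, 5270 TPM) and mesophyll markers (PEPC_A, 37.7 TPM, and NADP-MDH, 53.1 TPM) were above 0 in all 40 libraries. The labels give 2 names of a second sequencing index, AK2941 and AK10751, which were not spread evenly: ctrl_2h and ctrl_4h held AK2941 libraries only, while 3 of 4 libraries at HL_4h and at HT_4h carried AK10751. In whole leaf segments, a lower level per cell and fewer cells that express a gene cannot be told apart.

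Treated leaves were set against control leaves taken at the same hour, to ask which HSFs responded to light and which to heat, and when. Genes were called at an adjusted p under 0.05 (edgeR quasi-likelihood test, Benjamini-Hochberg over the 14293 genes tested). At HL_1h, 5 of the 10 HSFs were called, 4 up and 1 down, where 18.4% of all tested genes were called (9.29% up and 9.08% down). At HL_2h, 6 were called, 5 up and 1 down, against 30.4% of all tested genes (16.5% up and 13.9% down). At HL_4h, 3 were called, 2 up and 1 down, against 26.1% (13.5% up and 12.6% down). At HT_1h, 4 HSFs were called, all up, against 10.5% (5.07% up and 5.41% down). At HT_2h, 3 were called, all up, against 10.8% (5.38% up and 5.37% down). HSFB2B is in both of these heat counts and reached the filter through its HT_1h libraries. The shares of HSFs at HT_1h and HT_2h are therefore not free of that choice. At HT_4h, 1 was called up and 1 down, a share of 20% against 9.82% (4.22% up and 5.6% down). The median log2 fold change of the 10 HSFs was 0.74, 1.02 and 0.43 at 1, 2 and 4 h of HL, against medians of -0.00, 0.02 and 0.06 over all tested genes. Under HT the medians of the HSFs were 0.66, 0.45 and 0.16, against -0.02, -0.00 and 0.01 over all tested genes. With genes of very low counts set to their count ratio or bound, the median at HL_2h was 1.17 and the other medians under treatment did not move. The HL and HT comparisons share their control libraries, so their values stand side by side and were compared with each other only by the direct tests of HL against HT.

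**Figure D1:**
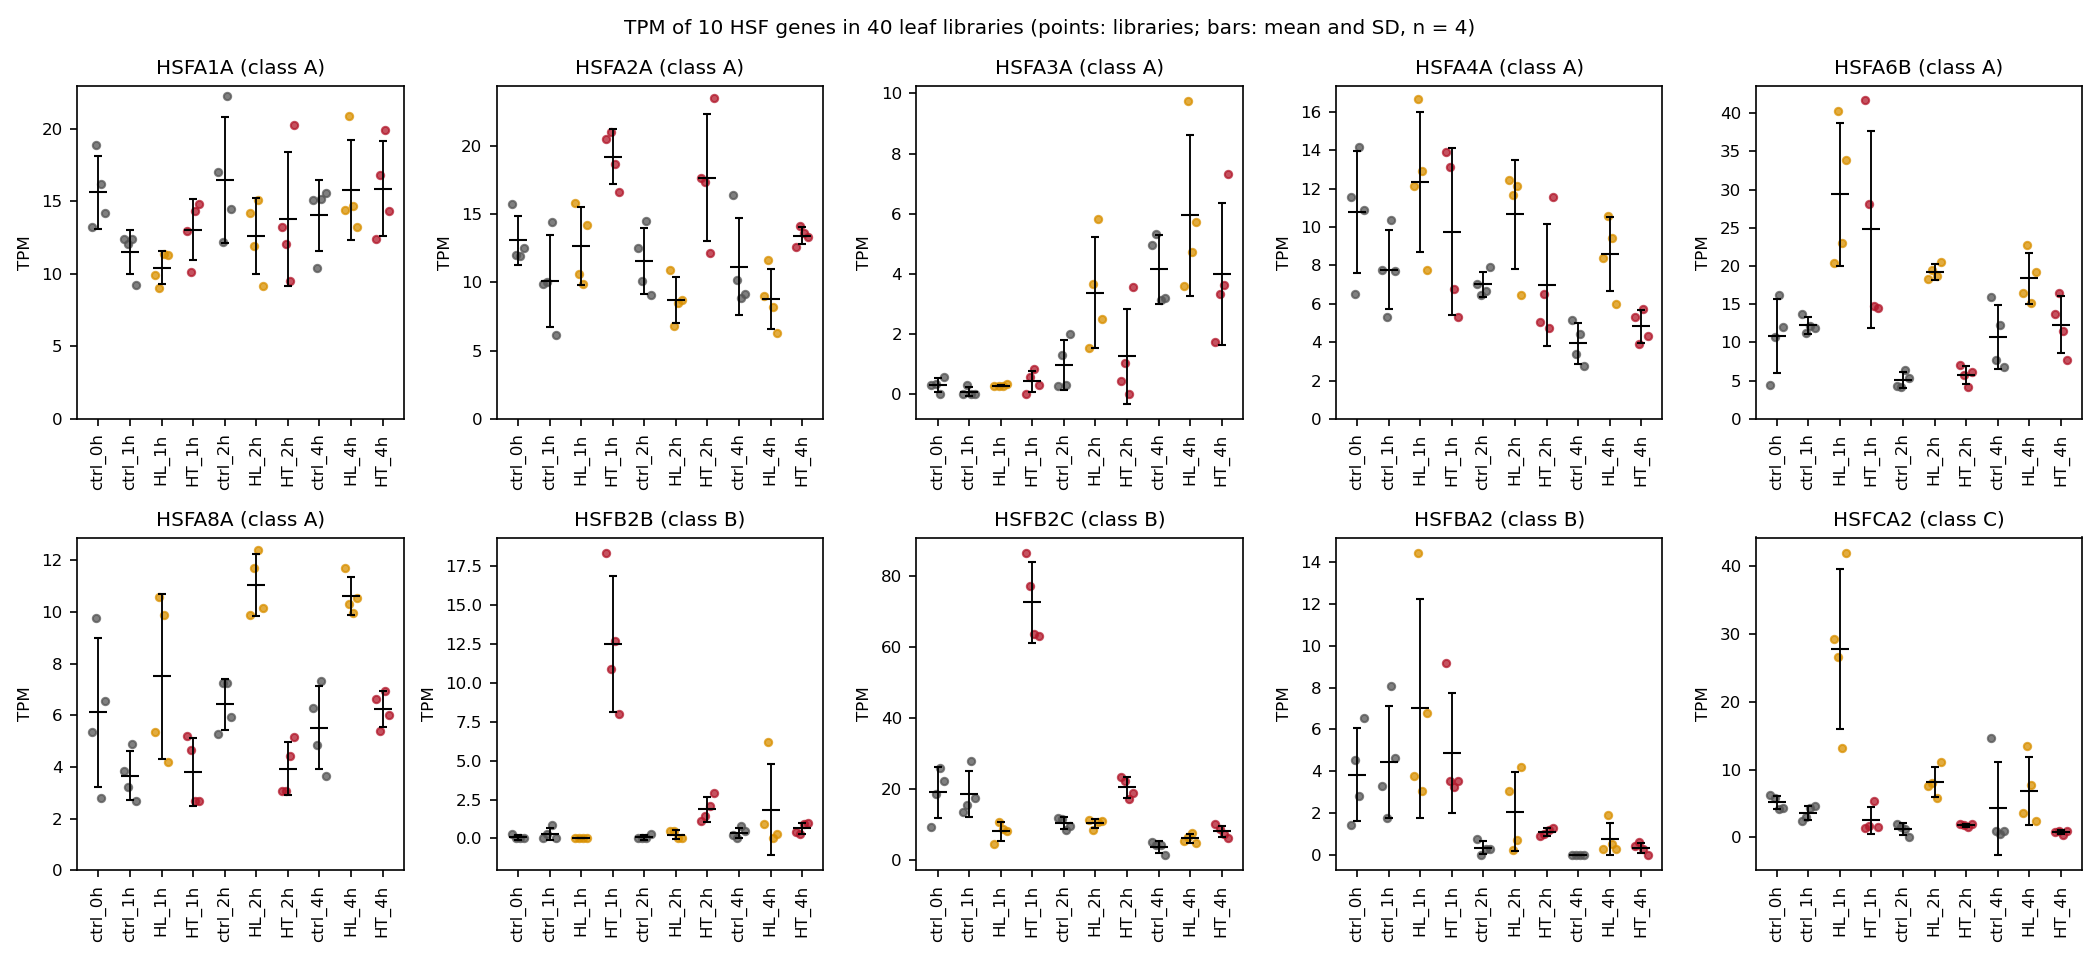
Level of each of the 10 HSFs (TPM, linear axis, 1 panel per gene with its own scale) in every library of the 10 conditions; points are libraries and bars are the mean and SD of 4 libraries. HSFB2C at HT_1h lay between 63.1 and 86.4 TPM, above every other library, and HSFCA2 reached 42.0 TPM at HL_1h.

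Among class A genes, HSFA6B rose under both treatments at 1 h and under HL at 2 h. Arabidopsis HSFA6b takes part in abscisic acid signalling and in thermotolerance. HSFA6B had 13.8, 11.2, 12.1 and 11.9 TPM in the libraries A to D of ctrl_1h, 20.4, 40.3, 23.0 and 33.9 TPM at HL_1h, and 41.7, 28.1, 14.8 and 14.5 TPM at HT_1h. Every HL_1h and HT_1h library was above every ctrl_1h library, and the HT_1h libraries fell into a higher pair (A and B, both with index AK2941) and a lower pair (C and D, both with AK10751). Within conditions HSFA6B was 0.21 higher in AK2941 libraries on the log2 scale (adjusted p = 0.501), and the part of the index in the split at HT_1h was not tested. The log2 fold change was 1.17 ± 0.31 at HL_1h (SE, adjusted p = 0.00546) and 1.05 ± 0.29 at HT_1h (adjusted p = 0.0154). The HL_1h call was kept in all 11 alternative settings and the HT_1h call in 8 of 11. That HT_1h call was lost in both limma fits (adjusted p = 0.0633 and 0.0764) and with edgeR on only the groups of that hour (adjusted p = 0.0685). Without HL_1h replicate B the value under HL was 0.83 (adjusted p = 0.0956). Count column n1 of HT_1h was used for its condition only, but its values were those of replicate A (41.7 TPM). Without it the value under HT was 0.66 (adjusted p = 0.162).

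At 2 h HSFA6B had 4.26, 4.15, 6.36 and 5.38 TPM in control leaves and 18.3, 19.5, 18.7 and 20.6 TPM under HL, which was the tightest group of HL libraries of this gene. HT_2h libraries (7.05, 5.71, 4.14 and 6.12 TPM) overlapped the control. The rise at HL_2h was 1.82 ± 0.32 on the log2 scale (adjusted p = 2.77e-05) and stayed called in all 11 alternative settings and without each library in turn. The value at HT_2h was 0.25 ± 0.35 (adjusted p = 0.711). At 4 h neither treatment passed the test, with 0.46 ± 0.29 under HL (adjusted p = 0.261) and 0.14 ± 0.30 under HT (adjusted p = 0.820). HL_4h libraries held 15.2 to 22.7 TPM and ctrl_4h libraries 6.85 to 16.0 TPM, and with scaling by total counts in place of TMM, which moves the median of all genes at HL_4h from 0.06 to 0.38, the difference was called (0.78, adjusted p = 0.0442).

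HSFA8A rose in high light and did not pass the test in heat. Arabidopsis HSFA8 is known as a redox-sensitive HSF. Its levels were 3.85, 3.24, 4.90 and 2.70 TPM at ctrl_1h and 5.36, 10.6, 9.87 and 4.201 TPM at HL_1h, where replicates B and C were high and D lay within the control range. The rise was 1.20 ± 0.29 on the log2 scale (adjusted p = 0.0024), and was kept without each library tested. Replicate D, the 1 HL_1h library with index AK10751, was not among the columns tested. With the reads of all 4 HL_1h libraries behind the TPM files the rise was 1.02 (adjusted p = 0.0091). Among AK2941 libraries alone it was 1.01 (adjusted p = 0.0523). The 4 libraries of HL_2h (9.89, 11.7, 12.4 and 10.2 TPM) were all above those of ctrl_2h (5.26, 7.26, 7.23 and 5.94 TPM), with a log2 fold change of 0.66 ± 0.25 (adjusted p = 0.0418). That call was lost when any library other than ctrl_2h replicate B was left out, with values between 0.57 and 0.71 and adjusted p up to 0.119.

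The HL_4h libraries of HSFA8A (11.7, 10.3, 9.95 and 10.5 TPM) did not overlap ctrl_4h either (6.29, 4.83, 7.32 and 3.65 TPM), yet the fitted change was 0.63 ± 0.25 (adjusted p = 0.0621). It was called with scaling by total counts (0.94, adjusted p = 0.00599) and without ctrl_4h replicate C (0.84, adjusted p = 0.0243). Under HT the values were 0.08 ± 0.30 at 1 h (adjusted p = 0.916), -0.70 ± 0.28 at 2 h (adjusted p = 0.0973) and 0.09 ± 0.26 at 4 h (adjusted p = 0.869). At HT_2h every library (3.08, 3.06, 4.44 and 5.15 TPM) was below every control library, although the difference did not pass the test.

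HSFA2A rose in heat at 1 and 2 h and was lower in high light at 4 h. Arabidopsis HSFA2 is a heat-induced HSF that prolongs acquired thermotolerance. HSFA2A had 9.91, 10, 14.4 and 6.16 TPM at ctrl_1h and 20.49, 21.0, 18.6 and 16.6 TPM at HT_1h, so that all heat libraries were above all controls. The rise was 0.95 ± 0.21 on the log2 scale, or 1.93-fold (adjusted p = 0.00182). At 2 h the control libraries held 12.5, 10.1, 14.5 and 9.07 TPM and the HT libraries 17.62, 17.3, 12.13 and 23.49 TPM, of which only replicate C lay within the control range. This rise of 0.63 ± 0.21 (adjusted p = 0.0405) was lost when ctrl_2h replicate A, B or D or HT_2h replicate A, B or D was left out (0.52 to 0.68, adjusted p up to 0.147). At 4 h under HT the libraries held 12.6, 14.1, 13.6 and 13.3 TPM, and the change was 0.18 ± 0.21 (adjusted p = 0.630).

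In high light HSFA2A did not pass the test at 1 h (0.25 ± 0.23, adjusted p = 0.507) or at 2 h (-0.51 ± 0.21, adjusted p = 0.0670). The 2 h difference was called without HL_2h replicate A (-0.66, adjusted p = 0.0282) and without ctrl_2h replicate D (-0.63, adjusted p = 0.0368). At 4 h the levels were 16.4, 10.2, 8.88 and 9.13 TPM in control leaves and 8.98, 11.6, 8.21 and 6.32 TPM under HL, which overlapped, with ctrl_4h replicate A far above the other libraries. The fitted fall was -0.65 ± 0.22 (adjusted p = 0.0221). It was -0.47 without ctrl_4h replicate A (adjusted p = 0.128), it was lost as well without HL_4h replicate D, and it was -0.34 with scaling by total counts (adjusted p = 0.275).

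HSFA4A was higher in high light at 1 and 4 h. Arabidopsis HSFA4a takes part in responses to oxidative stress, and HSFA4a of rice and wheat in cadmium tolerance. The ctrl_1h libraries held 7.74, 5.29, 10.4 and 7.72 TPM and the HL_1h libraries 12.13, 16.7, 12.9 and 7.76 TPM, with replicate D of HL_1h inside the control range. The change was 0.83 ± 0.29 on the log2 scale (adjusted p = 0.0363). This call, made without replicate D of HL_1h, held in only 2 of 11 alternative settings. With the 4 HL_1h libraries behind the TPM files in place of 3 columns the change was 0.67 (adjusted p = 0.0859). The call was lost without ctrl_1h replicate A or B, HL_1h replicate B or the HL_1h count column used for its condition only (0.67 to 0.98 over the libraries left out, adjusted p up to 0.157). By its values that column was replicate C.

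HSFA4A was also the 1 HSF that differed between the second indices within conditions, with AK2941 libraries higher by 0.55 on the log2 scale (adjusted p = 0.00673), where 6.92% of all tested genes differed. With the index as a term the HL_1h difference was 0.53 (adjusted p = 0.112). At 4 h the control libraries, all AK2941, held 5.17, 3.38, 4.44 and 2.74 TPM and the HL libraries, 3 of them AK10751, held 8.38, 10.6, 9.45 and 6.02 TPM, which did not overlap. The rise of 0.82 ± 0.29 (adjusted p = 0.0342) held in 10 of 12 alternative settings. It was lost with no filter (adjusted p = 0.0728) and with HL_4h replicates A and D alone (adjusted p = 0.231), a choice made after seeing the data. It was also lost without ctrl_4h replicate B or D or HL_4h replicate A, B or C (0.69 to 0.79, adjusted p up to 0.114). At 2 h of HL, with 12.4, 11.7, 12.13 and 6.44 TPM in A to D, the value of 0.49 ± 0.27 did not pass (adjusted p = 0.175), but with the index as a term it was 0.60 (adjusted p = 0.0479). HSFA4A passed no test under HT, with 0.37 ± 0.27, -0.02 ± 0.28 and 0.22 ± 0.31 at 1, 2 and 4 h (adjusted p between 0.469 and 0.976).

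HSFA3A was at or near 0 early in the experiment and higher later, in control leaves too. In Arabidopsis HSFA3 acts downstream of the drought and heat factor DREB2A. Its reads at 1 h summed to 1 in the ctrl_1h columns, 3 at HL_1h and 6 at HT_1h, for which the ratios of HT to control (5.25, exact 95% interval 0.636 to 241) and of HL to control (3.40, 0.273 to 178) were not bounded away from 1. These intervals, and those below, cover counting error only. At 2 h it had 0.250, 1.30, 0.289 and 1.98 TPM in control leaves and 1.52, 3.65, 5.83 and 2.48 TPM under HL, where only replicate A was within the control range. The rise was 1.67 ± 0.59 (adjusted p = 0.0290). It was lost without ctrl_2h replicate A or C or HL_2h replicate B or C (1.30 to 1.64, adjusted p up to 0.133). The other changes of HSFA3A at 2 and 4 h lay between -0.19 and 0.28, with adjusted p of at least 0.837.

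HSFA1A was called in 1 of the 6 treatment comparisons. HSFA1 proteins are the master regulators of the heat response in tomato and Arabidopsis. HSFA1A was present in every library, between 9.04 and 22.3 TPM, and its condition means lay between 10.4 ± 1.14 TPM at HL_1h (SD, n = 4) and 16.5 ± 4.34 TPM at ctrl_2h. The call was at HL_2h, where the libraries held 14.2, 11.9, 15.1 and 9.17 TPM against 17.0, 12.2, 22.3 and 14.4 TPM at ctrl_2h and overlapped (-0.50 ± 0.19, adjusted p = 0.0485). This call held in 3 of 11 alternative settings and was lost without ctrl_2h replicate A or C or HL_2h replicate B or D (-0.48 to -0.33, adjusted p up to 0.251). The other 5 treatment comparisons of HSFA1A gave log2 fold changes between -0.25 and 0.21, with confidence intervals of 95% that together ran from -0.64 to 0.62.

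Class B held the largest called rise at HT_1h, that of HSFB2B, which is described after HSFB2C. HSFB2C had 13.5, 15.6, 27.9 and 17.3 TPM at ctrl_1h and 86.4, 77.0, 63.4 and 63.1 TPM at HT_1h. Every heat library was far above every control. The rise was 1.99 ± 0.26 on the log2 scale, 3.98-fold (adjusted p = 3.53e-07), and it was called in all 11 alternative settings (1.95 to 2.06) and without each library (1.86 to 2.23). At HL_1h the same gene went the other way, with 4.56, 10.9, 8.85 and 8.08 TPM, all below every control library. The fall was -1.21 ± 0.31 (adjusted p = 0.00362) and was called in all 11 alternative settings and without each library.

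HSFB2C was still higher in heat at the later times, though at lower levels than at 1 h. At 2 h the controls held 11.8, 11.7, 8.39 and 9.62 TPM and the HT libraries 23.4, 22.2, 17.2 and 19.0 TPM, without overlap (1.03 ± 0.27, adjusted p = 0.0100). That call was kept in all 11 alternative settings but not without HT_2h replicate A (0.89, adjusted p = 0.0514). At 4 h the controls held 5.17, 4.35, 4.18 and 1.37 TPM and the HT libraries 10.04, 8.72, 7.24 and 6.33 TPM. These groups did not overlap either, and the rise was 1.04 ± 0.32 (adjusted p = 0.0321), although it was lost without ctrl_4h replicate B or D or HT_4h replicate A or B (0.76 to 1.13, adjusted p up to 0.136). Under HL the values at 2 and 4 h were -0.13 ± 0.28 (adjusted p = 0.775) and 0.40 ± 0.33 (adjusted p = 0.406).

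HSFB2B was nearly silent outside the early heat libraries. Its Arabidopsis namesake HSFB2b acts with HSFB1 as a repressor of HSF genes. HSFB2B reached 10 counts in 5 libraries only, the 4 of HT_1h and replicate B of HL_4h, so it was tested because of the condition in which it was high. It had 18.4, 10.9, 12.7 and 7.999 TPM at HT_1h against 0, 0.294, 0.864 and 0 TPM at ctrl_1h, and no HL_1h library held a read, which allows up to 0.205 TPM over those libraries. Counts summed to 192 against 4, a ratio of 42.0 (exact 95% interval 16.1 to 156), and the fitted rise was 5.27 ± 0.78 on the log2 scale (adjusted p = 8.12e-06). The heat libraries were all above the control libraries.

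By 2 h HSFB2B had dropped to 1.101, 1.43, 2.07 and 2.90 TPM under HT, still above the control with 0, 0, 0 and 0.283 TPM. The counts were 28 against 1, a ratio of 26.1 (exact 95% interval 4.31 to 1067), with an adjusted p of 0.0103. Both heat calls were kept in all 11 alternative settings and without each library. At 4 h the HT libraries (0.427, 0.301, 0.905 and 0.999 TPM) overlapped the control (0.225, 0, 0.784 and 0.457 TPM), with 9 counts against 6. HL_4h stood out through 1 library, with 0.898, 6.23, 0 and 0.301 TPM in A to D (adjusted p = 0.0967). Without HL_4h replicate C, the library at 0, the difference was called (adjusted p = 0.0307).

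HSFBA2, placed in class B by its name, fell over the time course in control leaves and was higher in high light at 2 and 4 h on few reads. At 1 h it passed no test (0.65 ± 0.59 under HL and 0.19 ± 0.57 under HT, adjusted p = 0.506 and 0.894). It had 0.751, 0, 0.289 and 0.283 TPM at ctrl_2h and 3.04, 0.243, 0.728 and 4.21 TPM at HL_2h, so that replicates A and D of HL were high and B and C were within the control range. Counts were 33 against 5, a ratio of 6.04 (exact 95% interval 2.34 to 19.8), and the fitted rise was 2.40 ± 0.85 (adjusted p = 0.0305). It was lost without ctrl_2h replicate B, C or D or HL_2h replicate A or D (1.78 to 2.34, adjusted p up to 0.161). At ctrl_4h no library held a read, which allows up to 0.179 TPM, while HL_4h had 0.299, 1.90, 0.497 and 0.301 TPM, or 11 counts. Against a floor of 3 control counts, and with the 11 counts taken as exact, HSFBA2 was at least 4.28-fold higher at HL_4h (adjusted p = 0.0334). Bounds of this kind below also take the higher count as exact. The HL_4h call was lost without any single ctrl_4h library or without HL_4h replicate B (adjusted p up to 0.138). Under HT the gene passed no test, with 17 counts against 5 at 2 h (ratio 3.17, 1.12 to 10.98, adjusted p = 0.287) and 5 against 0 at 4 h (adjusted p = 0.183). Every HT_2h library (0.881, 1.02, 1.18 and 1.29 TPM) was nonetheless above every ctrl_2h library. In the direct tests of HL against HT, HSFBA2 was not called at 2 h (0.77 ± 0.70, adjusted p = 0.402) or at 4 h (0.80 ± 0.99, adjusted p = 0.566).

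**Figure D2:**
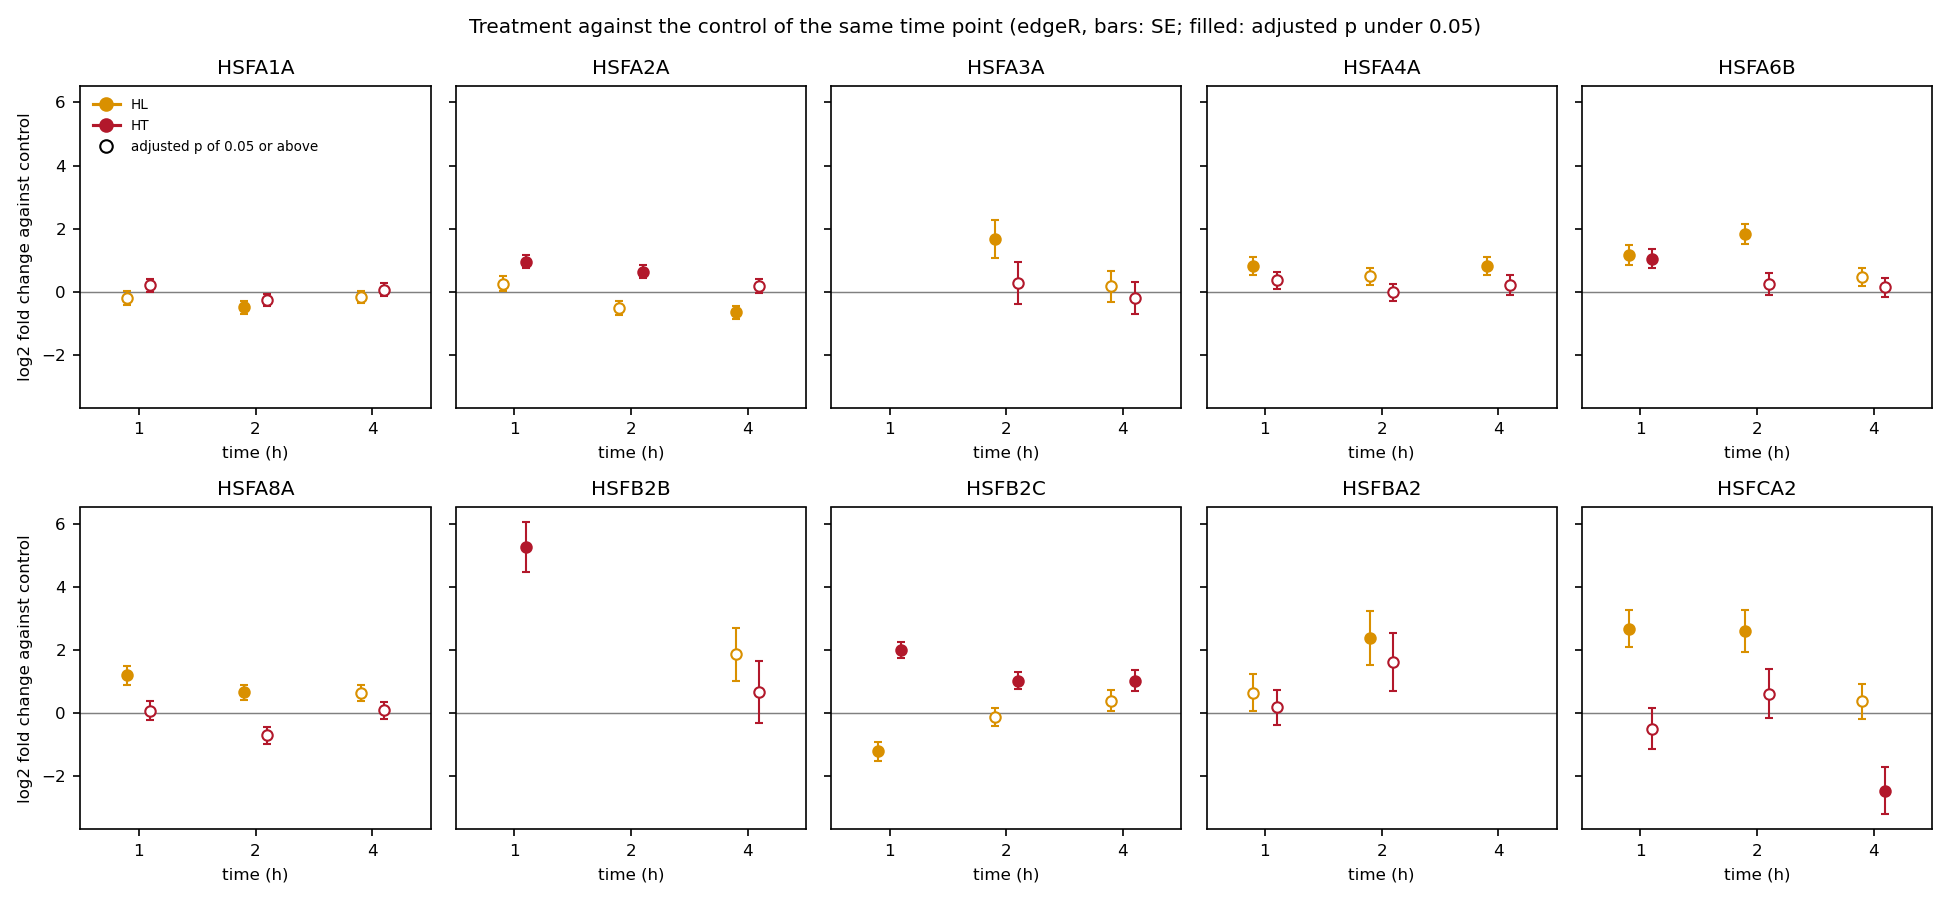
Log2 fold change of each HSF under HL and HT relative to control leaves of the same hour (1, 2 and 4 h) (edgeR; bars are SE, filled points have an adjusted p under 0.05); comparisons with 3 or fewer counts in a group are left out. HSFB2C lay at 1.99 under HT and -1.21 under HL at 1 h, and HSFCA2 at 2.69 under HL at 1 h.

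HSFCA2, the class C gene, rose in high light. It had 2.48, 2.94, 4.32 and 4.62 TPM at ctrl_1h and 29.2, 26.6, 13.2 and 42.0 TPM at HL_1h, and every HL library was above every control. The rise was 2.69 ± 0.58 on the log2 scale, 6.43-fold (adjusted p = 0.000705). At 2 h the HL libraries held 7.61, 8.03, 5.83 and 11.2 TPM and the controls 2.00, 1.56, 1.157 and 0 TPM, again without overlap (2.61 ± 0.66, adjusted p = 0.00229). Both calls were kept in all 11 alternative settings and without each library. In heat the gene did not pass the test at 1 h (-0.49 ± 0.65, adjusted p = 0.731) or at 2 h (0.62 ± 0.78, adjusted p = 0.682).

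At 4 h the values of HSFCA2 turned on 1 control library. The controls held 14.6, 0.967, 0.523 and 0.913 TPM in A to D, so that replicate A was far above the others. The HL_4h libraries held 3.59, 13.5, 7.71 and 2.41 TPM and the HT_4h libraries 0.854, 0.902, 0.302 and 0.999 TPM. With all libraries HSFCA2 was called down at HT_4h (-2.45 ± 0.75, adjusted p = 0.0320) and was not called at HL_4h (0.38 ± 0.56, adjusted p = 0.664). Without ctrl_4h replicate A the HT value was -0.21 (adjusted p = 0.906) and the HL value was 2.63 (adjusted p = 0.000714). The HT call was lost as well without any single HT_4h library.

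Summed over the 3 class B genes, the level at HT_1h was 89.9 ± 17.57 TPM (SD, n = 4) against 23.3 ± 9.31 TPM at ctrl_1h and 15.1 ± 7.32 TPM at HL_1h. The sum of the 6 class A genes was 45.4 ± 7.10 TPM at ctrl_1h, 72.6 ± 10.4 TPM at HL_1h and 71.0 ± 18.5 TPM at HT_1h. Each gene also had its own order of conditions. HSFB2C and HSFB2B were highest at HT_1h and HSFCA2 at HL_1h, each with no overlap with the condition next in order. HSFB2C had a further gap between the neighbouring conditions ctrl_1h (18.6 ± 6.43 TPM) and ctrl_2h (10.4 ± 1.65 TPM). For the other 7 genes the libraries of every condition overlapped those of the next, and HSFA2A was highest at HT_1h, HSFA4A, HSFA6B and HSFBA2 at HL_1h, HSFA8A at HL_2h, HSFA3A at HL_4h and HSFA1A at ctrl_2h.

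Light and heat were then compared directly at each time point, which uses no control library. At 1 h, 5 of the 10 HSFs were called, 2 higher in HL and 3 higher in HT, where 27% of all tested genes were called (14% higher in HL and 13% lower). HSFB2B, among those higher in HT here and at 2 h, was tested because of its HT_1h counts. HSFB2C was 3.20 ± 0.31 lower in HL on the log2 scale (adjusted p = 1.00e-10), with means of 8.08 ± 2.63 and 72.5 ± 11.3 TPM (SD, n = 4 each). HSFB2B, with 0 counts in HL and 192 in HT, was at least 49.4-fold lower in HL, against the floor of 3 counts over the HL group (adjusted p = 7.54e-07). HSFCA2 was higher in HL by 3.17 ± 0.60 (adjusted p = 6.80e-05), with means of 27.7 ± 11.8 and 2.48 ± 1.95 TPM. For these 3 genes no HL library overlapped an HT library, and the calls were kept in all 11 alternative settings and without each library.

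HSFA8A was higher in HL at 1 h (1.12 ± 0.29, adjusted p = 0.00264), with overlapping libraries, and HSFA2A was lower (-0.69 ± 0.22, adjusted p = 0.0170), with none. The HSFA2A call was lost without HL_1h replicate B or the HL_1h column used for its condition only, by its values replicate C (adjusted p up to 0.116). HSFA6B, which rose under both treatments at 1 h, differed between them by 0.12 ± 0.30 (adjusted p = 0.812, 95% interval -0.48 to 0.72).

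At 2 h, 7 HSFs were called between light and heat, 4 higher in HL and 3 higher in HT (40.4% of all tested genes, 21.2% higher and 19.3% lower in HL). Those higher in HL were HSFA6B (1.57 ± 0.31, adjusted p = 0.000102), HSFA8A (1.36 ± 0.26, adjusted p = 6.98e-05), HSFCA2 (1.99 ± 0.61, adjusted p = 0.00873) and HSFA3A (1.39 ± 0.57, adjusted p = 0.0488). The libraries of the first 3 did not overlap between treatments, while those of HSFA3A did, and its call was lost without HL_2h replicate B or C or HT_2h replicate A, B or C (1.02 to 1.36, adjusted p up to 0.204). Those higher in HT were HSFA2A (-1.14 ± 0.21, adjusted p = 3.24e-05), HSFB2C (-1.15 ± 0.27, adjusted p = 0.000648) and HSFB2B (4 counts in HL and 28 in HT, ratio of HT to HL 7.12, exact 95% interval 2.49 to 28.0, adjusted p = 0.00963), all without overlap.

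At 4 h, 2 HSFs were called, 1 in each direction (35.7% of all tested genes, 19.6% higher and 16.1% lower in HL). HSFCA2 was higher in HL (2.84 ± 0.73, adjusted p = 0.00231) and HSFA2A was lower (-0.84 ± 0.22, adjusted p = 0.00228), both with no overlap of libraries. HSFA4A and HSFA8A also had every HL_4h library above every HT_4h library, at 8.60 ± 1.94 against 4.83 ± 0.85 TPM and 10.6 ± 0.75 against 6.24 ± 0.68 TPM, but did not pass the test (adjusted p = 0.106 and 0.0967). With scaling by total counts both were called (0.83 and 0.76, adjusted p = 0.0351 and 0.0235). That scaling moves the median of all genes in this comparison from 0.001 to 0.23, and TPM values are likewise shares of the library total. In HL_4h replicates B and C, 3 of the 4 HSPs named for their rise at HL_4h had more reads than in A and D, and with A and D alone, a choice made after seeing the data, the HSFCA2 difference was 1.75 (adjusted p = 0.157).

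**Figure D3:**
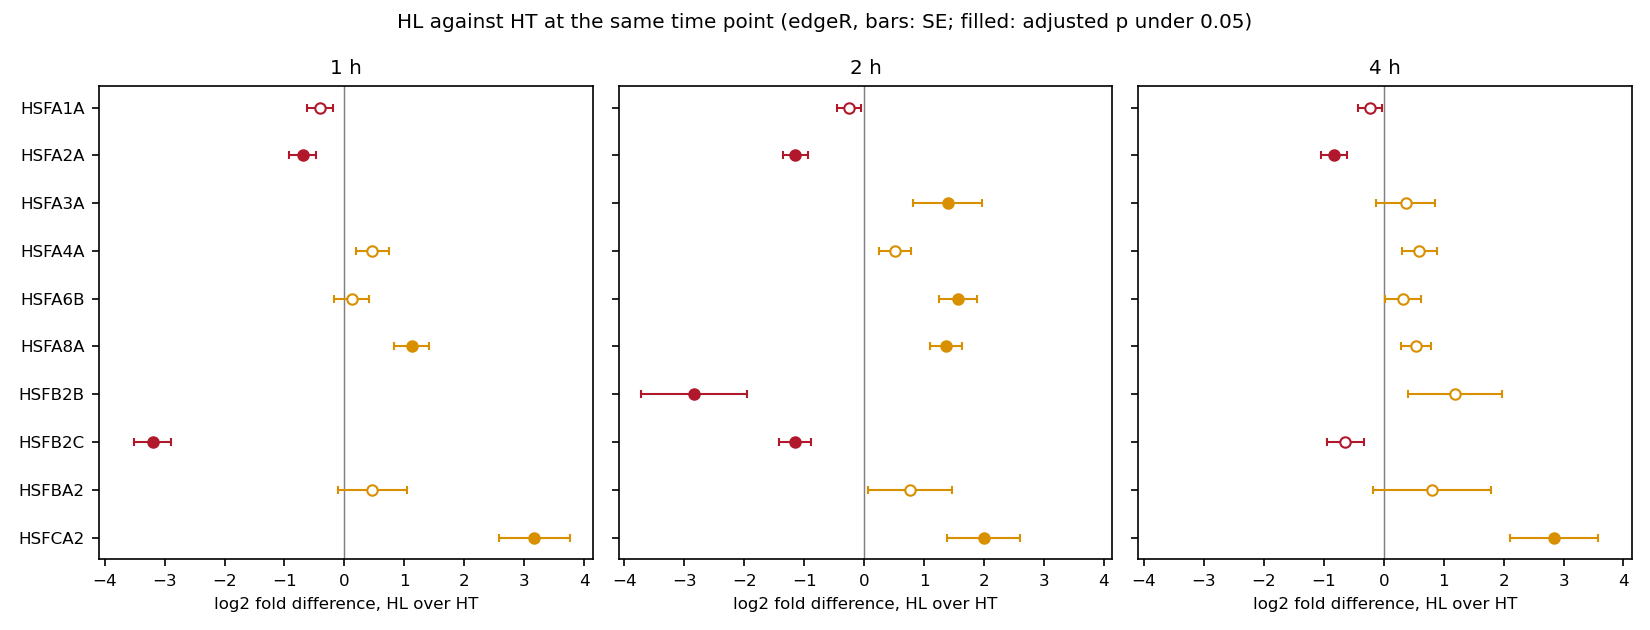
Log2 fold difference of HL over HT for each HSF at 1, 2 and 4 h (edgeR; bars are SE, filled points have an adjusted p under 0.05, points right of 0 are higher in HL); comparisons with 3 or fewer counts in a group are left out. HSFA2A lay left of 0 and HSFCA2 right of 0 at all 3 times, at -0.69, -1.14 and -0.84 and at 3.17, 1.99 and 2.84.

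The controls were compared with ctrl_0h to see how the HSFs moved over the 4 h without treatment. No HSF was called at ctrl_1h (6% of all tested genes; with edgeR and an unadjusted p under 0.05, HSFA8A alone, at -0.67 ± 0.30; DESeq2 called none as well). At ctrl_2h 1 HSF was called (HSFBA2, 8.58% of all tested genes), and without ctrl_0h replicate A 3 were, with HSFA6B (-1.35, adjusted p = 0.0127) and HSFB2C (-1.09, adjusted p = 0.0118) added. HSFCA2 had every ctrl_2h library below every ctrl_0h library (-2.12 ± 0.72, adjusted p = 0.0567), and it was called down with DESeq2, without a filter, on the groups compared alone and in both limma fits (adjusted p between 0.0121 and 0.0329). At ctrl_4h 4 were called (37.4%). HSFA3A had 0.281, 0.325, 0 and 0.545 TPM at ctrl_0h and 4.95, 5.32, 3.14 and 3.20 TPM at ctrl_4h, with no overlap and 70 counts against 3 (ratio 13.7, exact 95% interval 4.51 to 68.2, adjusted p = 0.000329). HSFA3A at 4 h was thus high with and without treatment, at 5.95 ± 2.68 TPM under HL and 3.99 ± 2.38 TPM under HT (SD, n = 4).

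HSFB2C fell from 9.28, 18.6, 26.0 and 22.3 TPM at ctrl_0h to the ctrl_4h values given above (-2.31 ± 0.31, adjusted p = 2.12e-07). HSFA4A fell from 11.6, 6.51, 14.2 and 10.9 TPM at ctrl_0h (-1.44 ± 0.30 at ctrl_4h, adjusted p = 0.000209). HSFBA2 had 1.41, 4.56, 2.81 and 6.54 TPM at ctrl_0h, or 35 counts, against 5 counts at ctrl_2h (ratio of ctrl_0h to ctrl_2h 10.5, exact 95% interval 4.10 to 34.4, adjusted p = 0.00871) and 0 at ctrl_4h, where it was at least 19.8-fold lower (adjusted p = 3.23e-05). All 4 genes had no overlap between ctrl_0h and ctrl_4h libraries, and these 5 calls were kept without each library and in every alternative setting that gave an adjusted p (DESeq2 gave none for HSFBA2 at ctrl_2h). HSFCA2 was not called at ctrl_4h (-0.39 ± 0.60, adjusted p = 0.648), but without ctrl_4h replicate A it was (-2.64, adjusted p = 0.000784).

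Whether a treatment effect itself changed with time was tested as a difference of differences. From 1 to 4 h of HL, 1 HSF was called (4.32% of all tested genes, 2.08% up and 2.24% down): the effect on HSFB2C moved up by 1.61 ± 0.45, from -1.21 to 0.40 (adjusted p = 0.0311). That call was lost without ctrl_1h replicate C, HL_1h replicate A, ctrl_4h replicate D or HL_4h replicate C (1.33 to 1.85 over the libraries left out, adjusted p up to 0.0946). No HSF was called from 2 to 4 h of HL (0.084%), from 1 to 4 h of HT (5.03%) or from 2 to 4 h of HT (3.49%) with edgeR. At an unadjusted p under 0.05 there were 2, 4 and 3 HSFs, and DESeq2 called 0, 1 and 1. The DESeq2 calls were HSFB2B from 1 to 4 h of HT (-4.70, adjusted p = 0.0177) and HSFCA2 from 2 to 4 h of HT (-3.07, adjusted p = 0.0446). The 4 h values of HSFCA2 turned on ctrl_4h replicate A, as described above. The heat effect on HSFB2B went from 5.27 at 1 h to 0.68 at 4 h (difference -4.60 ± 1.44, adjusted p = 0.0532), and the call was made without ctrl_1h replicate C (adjusted p = 0.0264) and without ctrl_4h replicate B (adjusted p = 0.0476). Leaving out ctrl_1h replicate C also gave a call for HSFA2A, in the change from 1 to 4 h under HL (-1.096, adjusted p = 0.0404) and under HT (-0.95, adjusted p = 0.0487).

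HSP genes, the classical targets of HSFs, were counted in the same fit from the lists of the study, in which 59 of 84 large and 29 of 55 small HSPs were tested. At HT_1h 23 large HSPs were called up and 1 down, and 23 small HSPs were called up and none down, with median log2 fold changes of 0.29 and 3.29. Over all tested genes 5.07% were called up and 5.41% down there. HSPs with few or no counts in control leaves, such as HSP21, may have reached the filter through treated libraries in which they were high. How many did was not counted, so the shares of HSPs called up may not be free of that choice. The counts of small HSPs called up under HT were 19 at 2 h and 8 at 4 h, with medians of 2.51 and 0.79. These were 65.5% and 27.6% of the small HSPs tested, against 5.38% and 4.22% of all tested genes. Under HL small HSPs went from 0 up and 1 down at 1 h to 5 up and 2 down at 2 h and 12 up and 2 down at 4 h (medians -0.35, 0.43 and 1.44). Large HSPs called up under HL numbered 9, 27 and 25, and those called down 2, 6 and 6. Over all tested genes 9.29%, 16.5% and 13.5% were called up at 1, 2 and 4 h of HL, and 9.08%, 13.9% and 12.6% down. The shares called up were 0%, 17.2% and 41.4% of small HSPs and 15.25%, 45.8% and 42.4% of large HSPs. The shares called down were 3.45%, 6.90% and 6.90% of small HSPs and 3.39%, 10.2% and 10.2% of large HSPs, all below those of all tested genes.

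Among HSPs with the largest rise at HT_1h, HSP90.1, a cytosolic chaperone, had 1111 to 2753 counts against 1 to 3 at ctrl_1h (9.97 ± 0.73 on the log2 scale, adjusted p = 5.97e-13). HSP70 (Sevir.5G381300) had 2891 to 4410 counts against 11 to 52 (7.13 ± 0.61, adjusted p = 2.79e-11), and HSP17.6C (Sevir.9G462200), a small HSP, had 3960 to 12888 against 1 to 8 (10.88 ± 0.66, adjusted p = 4.15e-15). The chloroplast small HSP HSP21 had 157 to 1099 counts and none in control leaves. All heat libraries of these genes were far above the controls. The HSP lists are those of the study of these samples and give no independent evidence of a direction, and whether the HSFs act on these HSPs was not tested.

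At HL_4h the HSPs with the largest rise were uneven between replicates, with HSP90.1 high in B only and the other 3 high in B and C. HSP90.1 had 0, 78, 2 and 1 counts in A to D against 0 to 1 in control leaves, and HSP70/HSP70.4 had 37, 186, 350 and 48 against 9 to 24. HSP17.6B had 0, 10, 26 and 0 counts, and HSP17.6C (Sevir.5G091200) had 0, 131, 18 and 0. Replicate B of HL_4h was also the highest HL_4h library for HSFA1A, HSFA2A, HSFA3A, HSFA4A, HSFA6B, HSFB2B, HSFBA2 and HSFCA2. With HL_4h replicates A and D alone, 1 HSF was called at HL_4h in place of 3, with HSFA4A at 0.62 (adjusted p = 0.231) and HSFBA2 at an adjusted p of 0.251.

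**Figure D4:**
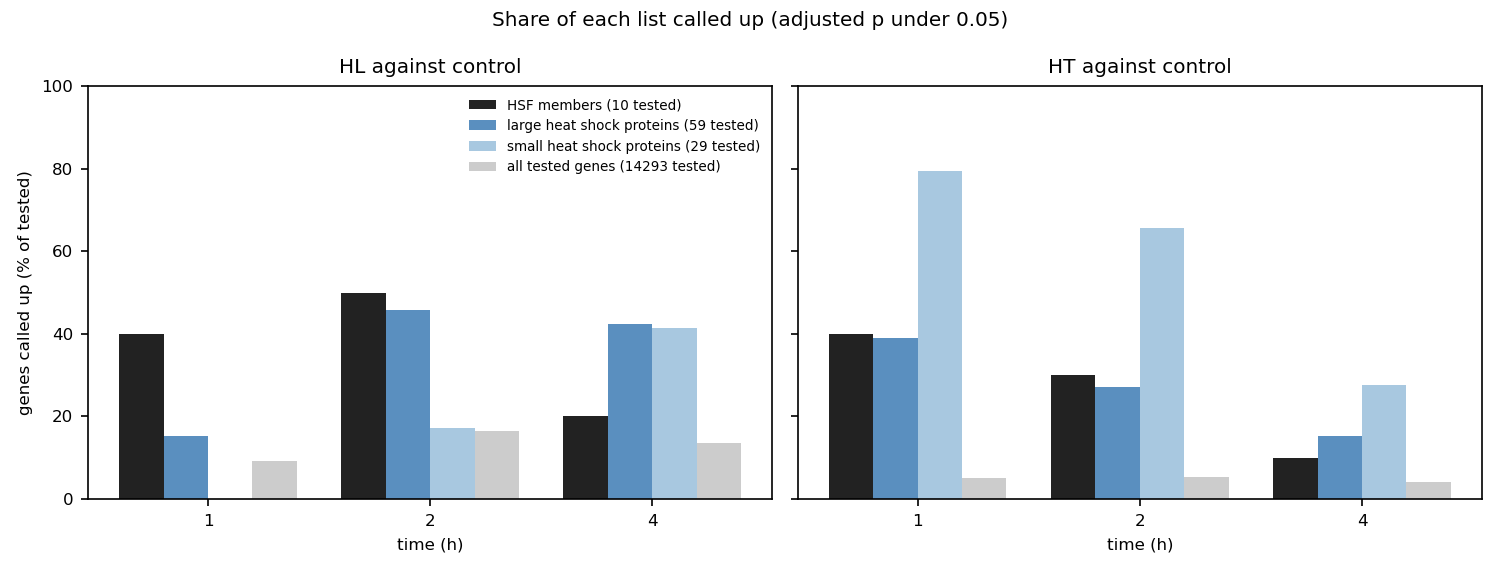
Share of the 10 HSFs, the 59 large and 29 small HSPs and all 14293 tested genes called up (percent of tested, adjusted p under 0.05) at 1, 2 and 4 h of HL (left) and HT (right). At HT_1h, 79.3% of small HSPs, 39.0% of large HSPs and 40% of HSFs were called up, against 5.07% of all tested genes. The HSFs include HSFB2B, which reached the filter through its HT_1h libraries. HSPs near 0 in control leaves may have reached it through their treated libraries as well, which was not counted. At HL_1h no small HSP was called up, against 9.29% of all tested genes.

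The other 8 HSFs that the study lists did not reach the filter and were not tested. HSFB4A, HSFA7B and HSFA2E had no read in any of the 40 libraries, which allows up to 0.0207 TPM over all libraries. HSFA4D had at most 1 count in a library, HSFA7A 6, HSFA5A 8 and HSFA2B 11. HSFB1A, named like the Arabidopsis repressor HSFB1, had at most 14 counts, in replicate B of HL_4h, and reached 10 counts in 2 libraries.

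Patterns over the 10 condition means were compared as Pearson correlations of mean log2(TPM + 1), which describe these conditions only, since all genes share the same libraries. Between HSFs the closest pairs were HSFA4A with HSFBA2 (0.79), HSFCA2 with HSFA4A (0.75) and HSFB2C with HSFB2B (0.73), and the most opposed were HSFA3A and HSFBA2 (-0.77). Among all tested genes the closest to HSFA3A was Sevir.5G388500 (0.99), to HSFB2B Sevir.3G179600 (0.98), to HSFCA2 Sevir.4G268700 (0.98) and to HSFA8A Sevir.2G136000 (0.98). The lowest of the best values was 0.91, for HSFA6B, so that its pattern had the least close match.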

How the data were processed

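The authors trimmed the QuantSeq reads with Trim Galore 0.6.2, quantified them with Salmon 1.1.0 against the S. viridis v2 transcripts and summed them to genes with tximport. The deposited table of the authors holds estimated counts per gene, rounded to whole numbers, and a second deposited file per library gives the TPM of the authors, whose values carry no gene length. Of 40 count columns 1 was not used, since its header named another condition than its library, and 4 were used for their condition only. Tests covered the genes that reached 10 counts in 4 or more libraries (10%), in edgeR 4.0.16 (R 4.3.3) with TMM scaling and 1 quasi-likelihood fit over all 10 conditions, with Benjamini-Hochberg adjustment and calls at an adjusted p under 0.05. The functions were tested on simulated counts for HL_1h against ctrl_1h, with 200 of 14293 genes changed. There edgeR recovered 36.8% of the 2-fold and 67.3% of the 4-fold changes, with 0 false calls. Many changes of such size were thus missed in the simulation. It changed far fewer genes than the 18.4% called at HL_1h in the data, and at 1 condition only. The shares recovered there may therefore not hold for the data. A difference that did not pass the test is not shown to be absent. The alternatives were DESeq2 1.42.0, total-count scaling, no filter, filterByExpr, fits on only the groups compared, the reads behind the 40 TPM files (alone, with the replicate block, with the second index as a term, or AK2941 only), limma 3.58.1 on log2(TPM + 1) and log2(TPM + 0.1), and each library left out in turn. All 10 HSFs are named, with 2 large and 2 small HSPs per comparison shown, and the HSP lists are those of the study. The members and lists were chosen with earlier results of these data known. Replicates are separate pools of plants.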

Additional observations from a re-analysis of the deposited data

Results flagged for a closer look

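In 13 of 98 groups of 4 libraries, 1 library stood apart from the other 3 by Dixon's criterion, which divides the gap to the nearest library by the range. Independent, normally distributed values would pass this cut-off in about 1 in 20 groups. These groups share libraries and some hold mostly 0, so the count is a description and no test of an excess. HSFCA2 had 14.6 TPM in ctrl_4h replicate A, with 0.967 TPM in the nearest library, and 5.40 TPM in HT_1h replicate C, with 1.64 TPM in the nearest. HSFA2A had 16.4 TPM in the same ctrl_4h replicate A (nearest 10.2 TPM) and 15.8 TPM in ctrl_0h replicate A (nearest 12.5 TPM). HL_4h replicate B was high for HSFB2B, at 6.23 TPM (nearest 0.898 TPM), and for HSFBA2, at 1.90 TPM (nearest 0.497 TPM).

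HSFBA2 had 9.18 TPM in HT_1h replicate A (nearest 3.56 TPM). HSFA4A was low in HL_2h replicate D, at 6.44 TPM (nearest 11.7 TPM), and HSFA1A was low in ctrl_1h replicate D, at 9.24 TPM (nearest 12.06 TPM), and in ctrl_4h replicate B, at 10.4 TPM (nearest 15.1 TPM). Single reads set 3 more groups apart, where the other libraries held none: HSFA3A in ctrl_1h replicate B (0.294 TPM) and HSFB2B in ctrl_0h replicate A (0.281 TPM) and ctrl_2h replicate D (0.283 TPM).

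The effect of HL on HSFB2C differed between time points, by 1.61 on the log2 scale from 1 to 4 h, in the test of the difference itself (edgeR, adjusted p = 0.0311).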

How the results depend on the processing

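Of 23 calls of treatment against control, 7 were kept without each library and in every alternative that gave an adjusted p, as were 7 of 14 between HL and HT and 5 of 5 between controls, and no call changed direction. The calls kept include those of HSFB2B at HT_1h, at HT_2h and between HL and HT at 1 h. HSFB2B was tested because of its HT_1h counts, so these counts of kept calls are not free of that choice. AK2941 libraries alone gave 3 called HSFs at HL_1h, 1 at HL_4h, 0 at HT_4h, 0 for HL_4h against HT_4h, 2 at ctrl_2h and 0 for the change of HL from 1 to 4 h, but HL_4h and HT_4h each held 1 AK2941 library, assumed to vary like the other groups, so a call lost there says nothing about stability. Total-count scaling gave 5 at HL_4h and 4 for HL_4h against HT_4h, and over all genes at HL_4h it called 3913 up and 949 down, against 1930 and 1797 with TMM. On log2(TPM + 0.1) limma gave 3 at HL_2h, 5 at HL_4h, 1 at HT_4h, 3 at ctrl_2h and 1 for the change of HT from 1 to 4 h, and on log2(TPM + 1) it gave 1 at HT_4h, 4 for HL_4h against HT_4h, 2 at ctrl_2h and 1 for that change. DESeq2 gave 3 at ctrl_2h and 1 for each change of HT, no filter gave 2 at ctrl_2h and 1 for the change of HT from 1 to 4 h, and the groups compared alone gave 0 at HT_4h and 2 at ctrl_2h. The second index as a term gave 3 at ctrl_2h and 2 for the change of HL from 1 to 4 h. HL_4h replicates A and D alone, added after seeing the data, gave 1 at HL_4h and 1 for HL_4h against HT_4h. The causes were not tested.

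Leaving out each library gave 3 to 5 called HSFs at HL_1h, 2 to 5 at HL_2h, 1 to 3 at HL_4h, 3 to 4 at HT_1h, 1 to 3 at HT_2h and 0 to 2 at HT_4h. HL against HT gave 4 to 5, 6 to 8 and 2 to 2 at 1, 2 and 4 h, the controls 0 to 0, 1 to 3 and 4 to 5, and the changes 0 to 1 and 0 to 0 for HL and 0 to 2 and 0 to 0 for HT, from 1 and from 2 h. The lowest counts came without HL_1h replicate B, ctrl_2h replicate C (HL_2h), ctrl_4h replicate B or D or HL_4h replicate B (HL_4h), HT_2h replicate A, and HT_4h replicate A or B. The condition of the highest mean was unchanged in 9 to 10 HSFs.

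Replicate letters did not pair the samples: correlations of same-letter deviations lay between -0.22 and 0.25, and 0 to 2 of 4 letters correlated best with their own. A fit with the replicate block gave 1 called HSF at HT_4h and 2 for the change of HL from 1 to 4 h, and 4, 5, 3, 4 and 3 at HL_1h, HL_2h, HL_4h, HT_1h and HT_2h. Library totals limit HSFA3A, HSFB2B and HSFBA2 most, whose groups held few counts.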
